A study of Homo sapiens with 18 samples.

Results

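PEO1 cells treated with estradiol for 8 h were compared with PEO1 cells treated for 2 h, both after transfection with a control siRNA. The comparison used the 3 siControl 8 h samples and the 3 siControl 2 h samples, chosen by their labels, which are 6 of the 18 samples of the series. All genes that passed a filter on low counts were tested. PEO1 is a human ovarian cancer cell line, and the series title describes p53 in it as mutant. The study transfected the cells with siControl or with an siRNA against p53 (sip53) and gave 10 nM estradiol (E2), with 3 samples in each of 6 groups.

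The siControl 8 h and siControl 2 h groups shared the cell line, the control siRNA, a period in phenol red-free medium with charcoal-stripped serum before hormone, and the E2 dose, and differed in the time with E2. The siControl 0 h group had the same siRNA and medium and no E2. The sip53 8 h and sip53 2 h groups had the siRNA against p53 and the same hormone treatment. A vehicle group at 2 h or 8 h was not analysed here, so time in culture and time with E2 cannot be told apart. PEO1 is a single line. Nothing in the labels tells whether the 3 samples of a group were grown apart, so the spread behind each p-value is that of the samples given and could be technical.

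Estradiol enters cells and binds the estrogen receptor, a transcription factor that acts on target genes directly, by binding DNA, or through other factors. Transcripts of direct targets can move soon after hormone, while later changes also include genes that answer to the products of the early ones. Among the regulators of later changes in many cells is ATF4, a transcription factor that drives amino acid transport, amino acid synthesis and stress genes when amino acids are scarce or proteins misfold. Chaperones of the endoplasmic reticulum are driven by other factors of the unfolded protein response, ATF6 and spliced XBP1, and genes of cholesterol synthesis and uptake by SREBP2.

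Counts came from a 3' mRNA-seq kit, in which reads come from the 3' ends of transcripts, so a count follows the number of transcripts and not their length. Total counts were 8781324 to 9688603 in the siControl 8 h samples and 8337555 to 8987475 in the siControl 2 h samples, within a range of 7542457 to 11307199 over all 18. Levels are CPM after TMM scaling, given per sample or as mean ± SD with n = 3. Only the cell type markers in this paragraph are given as CPM without TMM scaling. Fold changes are on the log2 scale, 8 h over 2 h, with their standard error. The 100 most abundant genes held 22.16 to 22.52% of counts at 8 h and 21.25 to 21.76% at 2 h. In a principal component analysis of the 6 samples, the first component held 26.28% of the variance and placed the 8 h samples at 21.18 to 26.47 and the 2 h samples at -28.91 to -20.29. Markers of ovarian carcinoma epithelium (EPCAM, KRT7, KRT8, KRT18, KRT19, PAX8, WT1, MUC16 and WFDC2) were all measured, summed to 4847 to 5411 CPM at 8 h and 5316 to 5419 CPM at 2 h, and none of the 9 was called. Fibroblast markers summed to 130.1 to 135.6 CPM at 8 h and 132.1 to 144.5 CPM at 2 h with 3 of 10 passing the filter, leukocyte markers to 12.15 to 16.83 and 15.45 to 20.89 CPM with 2 of 12, and endothelial markers to 3.324 to 3.949 and 3.358 to 5.034 CPM with 1 of 10. DCN, LUM, COL3A1, PTPRC, CD3E, TEK and CLDN5, defining genes of those cells, had 0 counts in all 6 samples. Other members of the same lists were detected. The fibroblast marker THY1 had 114.9 to 120.8 CPM at 8 h and 112.8 to 121.5 CPM at 2 h. FAP had 9.56 to 14.9 and 13.54 to 15.57 CPM at the same times. The leukocyte marker CD68 had 6.075 to 9.248 and 9.962 to 11.95 CPM, and CD14 4.726 to 6.962 and 4.098 to 8.814 CPM. The endothelial marker ERG had 2.858 to 3.637 and 3.246 to 4.098 CPM. Replicate 2 of siControl 0 h stood apart from the other libraries on the second component over all 18 samples, and it enters only the comparisons with 0 h and the shared estimate of spread.

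Of 14910 genes tested, 160 differed between 8 h and 2 h at an adjusted p under 0.05, which is 1.07% of those tested (edgeR quasi-likelihood test, Benjamini-Hochberg adjustment). Expression was higher at 8 h for 96 genes (0.644% of those tested) and lower for 64 (0.429%). The changes were modest in size, with 20 of the higher genes and 13 of the lower ones beyond 2-fold. Protein-coding genes made up 149 of the 160. In 159 of the 160 the 3 samples at 8 h and the 3 at 2 h did not overlap, the exception being MAB21L4; without regard to calls, 18.3% of all genes tested did not overlap. The counts differed with the library left out: leaving out siControl 2 h replicate 1, 2 or 3 gave 54, 58 and 47 higher genes with 52, 29 and 35 lower ones, and leaving out siControl 8 h replicate 1, 2 or 3 gave 64, 59 and 50 higher with 40, 34 and 48 lower. A core of 56 genes, 32 higher and 24 lower, was called in all 6 of these leave-one-out fits.

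**Figure D1:**
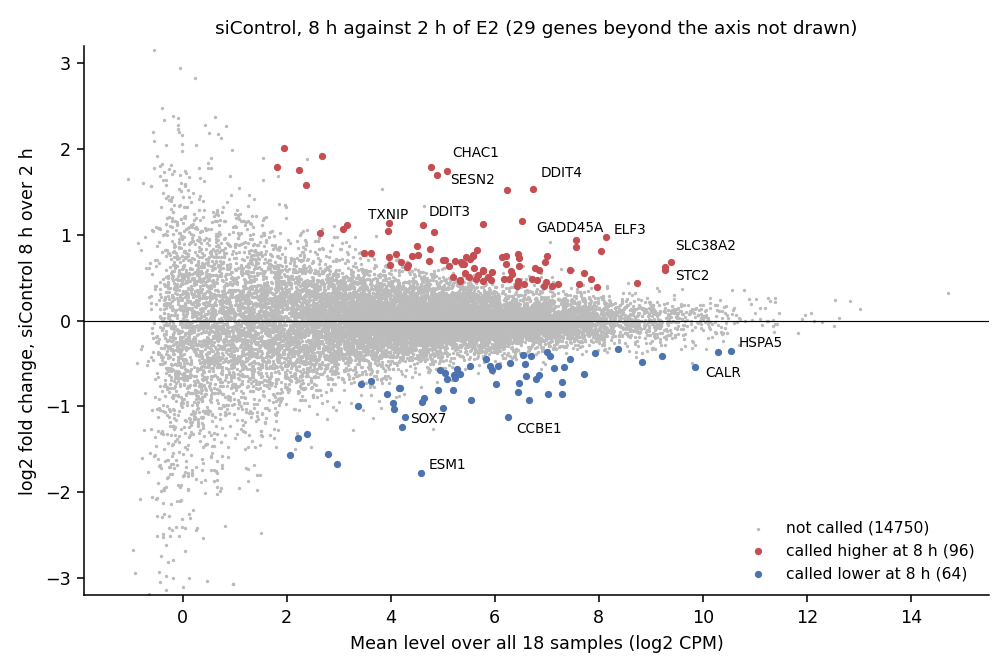
Log2 fold change of siControl 8 h over siControl 2 h (vertical axis) against the mean level over all 18 samples in log2 CPM (horizontal axis) for each gene tested. Red points are the 96 genes called higher at 8 h, blue points the 64 called lower and grey points those not called; 29 genes lie beyond the vertical axis, 3 of them called. CHAC1, DDIT4 and SESN2 lie far above the line and ESM1 far below it.

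Genes of the ATF4 stress response were among those that rose most between 2 h and 8 h. Of 36 measured members of a list of ATF4 targets and tRNA synthetases, 7 rose (CEBPB, CHAC1, DDIT3, DDIT4, SESN2, SLC3A2 and STC2) and 0 fell. That is 19.4% of the list called, beside 1.07% of all genes. The median log2 fold change of the list was 0.24, against -0.0034 over all genes tested, and the 8 h samples all lay above the 2 h samples in 44.4% of its members, against 9.09% of all genes.

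CHAC1 (chr15:40952962-40956519), which degrades glutathione, had 69.8, 78.6 and 72.7 CPM in the siControl 8 h samples, against 26.3, 21.2 and 18.5 CPM in the siControl 2 h samples. The lowest 8 h sample was above the highest 2 h sample by a wide margin, and the untreated samples, at 20.6, 18.1 and 22.3 CPM, lay with the 2 h samples. The log2 fold change was 1.74 ± 0.15 (adjusted p = 9.08e-08, edgeR). DDIT4 (chr10:72273920-72276036), an inhibitor of mTORC1 signalling, had 179, 227 and 193 CPM at 8 h, against 76.2, 66.8 and 63.3 CPM at 2 h. Its log2 fold change was 1.53 ± 0.13 (adjusted p = 1.2e-07). SESN2 (chr1:28259527-28282491), a leucine sensor that also restrains mTORC1, had 141, 167 and 155 CPM at 8 h, against 58.9, 52.0 and 50.4 CPM at 2 h. In both genes the 2 groups were far apart and the 0 h samples, at 80.2, 65.9 and 55.1 CPM for DDIT4 and 66.5, 66.9 and 48.7 CPM for SESN2, were at the level of the 2 h samples. DDIT3, which encodes the transcription factor CHOP, averaged 98.1 ± 4.61 CPM at 8 h and 44.9 ± 4.65 CPM at 2 h, a log2 fold change of 1.13 ± 0.13 (adjusted p = 9.24e-06).

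Of the 3 amino acid transporter genes on the list, SLC3A2 rose, while SLC7A11 and SLC7A5 had log2 fold changes of 0.27 and 0.18 and were not called. SLC3A2, the heavy chain shared by several amino acid exchangers, had 705, 742 and 784 CPM at 8 h, against 457, 511 and 509 CPM at 2 h (log2 fold change 0.60 ± 0.10, adjusted p = 0.00101). SLC38A2, a carrier of small neutral amino acids that was not on the list and was picked out after its values were seen, had 851, 1032 and 915 CPM at 8 h, against 554, 591 and 600.1 CPM at 2 h (log2 fold change 0.68 ± 0.09, adjusted p = 0.000119). In neither gene did any 8 h sample reach down to the 2 h samples. SLC1A4, another neutral amino acid transporter picked out in the same way, averaged 74.6 ± 2.54 CPM at 8 h and 49.6 ± 2.82 CPM at 2 h (log2 fold change 0.59 ± 0.12, adjusted p = 0.0084), and was called in 6 of the 6 leave-one-out fits. STC2, a secreted glycoprotein that is also a known estrogen target, had 909, 1048 and 959.6 CPM at 8 h, against 588, 655 and 643 CPM at 2 h, and a log2 fold change of 0.63 ± 0.09 (adjusted p = 0.000179). CHAC1, DDIT4, SESN2, DDIT3, SLC3A2, SLC38A2 and STC2 were called in each of the 6 leave-one-out fits. CEBPB, a transcription factor, averaged 179.8 ± 15.5 CPM at 8 h and 131 ± 2.03 CPM at 2 h (log2 fold change 0.45 ± 0.11, adjusted p = 0.0429), and was called in 0 of the 6 fits, with an adjusted p of up to 0.22 without siControl 8 h replicate 2.

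The rise did not extend to every branch of the list at this threshold. ATF4 itself averaged 857 ± 19.2 CPM at 8 h and 665 ± 109.7 CPM at 2 h, a log2 fold change of 0.37 ± 0.10 that was not called (adjusted p = 0.0967). The amino acid synthesis genes ASNS, PHGDH, PSAT1 and SHMT2 had log2 fold changes of 0.11, 0.22, 0.13 and 0.17, and none was called. Among the tRNA synthetases the values ran from -0.11 for YARS1 to 0.34 for CARS1, again with no call. Uncalled members with larger fold changes were VLDLR at 0.53, NUPR1 at 0.48, VEGFA at 0.45 and TRIB3 at 0.40.

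PPP1R15A, which directs the phosphatase that reverses the ATF4-inducing block of translation, stood on the immediate-early list. It averaged 75.2 ± 6.79 CPM at 8 h and 54.8 ± 0.470 CPM at 2 h (log2 fold change 0.46 ± 0.11, adjusted p = 0.0311). It was called in 0 of the 6 leave-one-out fits, with an adjusted p of up to 0.175 without siControl 8 h replicate 2. ADM2, a peptide hormone of the adrenomedullin family, averaged 29.9 ± 2.75 CPM at 8 h and 13.6 ± 3.202 CPM at 2 h, a log2 fold change of 1.13 ± 0.22 (adjusted p = 0.00602). It was called in 5 of those 6 fits, with an adjusted p of 0.0568 without siControl 2 h replicate 3.

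Chaperones of the endoplasmic reticulum went the other way. Of 22 measured members of the list of unfolded protein response chaperones, 5 fell (PDIA4, SDF2L1, CALR, DNAJB11 and HSPA5) and 1 rose (XBP1), which is 27.3% called beside 1.07% of all genes. The median log2 fold change was -0.25, and in 59.1% of the members all 8 h samples lay below all 2 h samples, against 9.2% of all genes. Over untreated cells the list's median was 0.12 at 2 h and -0.15 at 8 h, and 0 members were called higher at 2 h than at 0 h. The fall and the 2 h median share the 2 h libraries. Whether part of the fall came from a raised 2 h level was not tested. At 8 h against 0 h, 3 members were called higher and 3 lower, where 1.84% and 0.845% of all genes were. DNAJB11 was not called there (log2 fold change -0.13). XBP1 is not a chaperone but a transcription factor of the pathway, and it is also on the estrogen-induced list.

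PDIA4, a disulfide isomerase, had 69.3, 63.1 and 71.4 CPM in the siControl 8 h samples, against 128, 117 and 118 CPM in the siControl 2 h samples. The untreated samples lay between, at 103, 79.3 and 107 CPM. The log2 fold change was -0.83 ± 0.11 (adjusted p = 0.000179). CALR, the lectin chaperone calreticulin, had 712, 638 and 760.0 CPM at 8 h, against 961, 956 and 1161 CPM at 2 h, and a log2 fold change of -0.54 ± 0.10 (adjusted p = 0.00285). SDF2L1, a partner of BiP, averaged 70.9 ± 5.54 CPM at 8 h and 111 ± 7.74 CPM at 2 h (log2 fold change -0.65 ± 0.09, adjusted p = 0.000321). These 3 genes were called in all 6 leave-one-out fits.

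The central chaperone of the compartment, BiP, is encoded by HSPA5. It had 1299, 1367 and 1336 CPM at 8 h, against 1718, 1611 and 1771 CPM at 2 h, a log2 fold change of -0.35 ± 0.08 (adjusted p = 0.0283). HSPA5 falls outside the rule for named genes and was picked out after its values were seen. DNAJB11, a co-chaperone of BiP, averaged 213 ± 2.597 CPM at 8 h and 277 ± 9.73 CPM at 2 h (log2 fold change -0.38 ± 0.08, adjusted p = 0.0193). The groups did not overlap in either gene, but HSPA5 was called in 0 and DNAJB11 in 1 of the 6 leave-one-out fits, with adjusted p up to 0.121 (without siControl 8 h replicate 1) and 0.0919 (without siControl 8 h replicate 2). Uncalled chaperones had HSP90B1 at -0.50, PDIA3 at -0.36 and PDIA6 at -0.28 on the same scale. XBP1 averaged 129 ± 10.7 CPM at 8 h and 95.4 ± 3.87 CPM at 2 h (log2 fold change 0.43 ± 0.09, adjusted p = 0.0206), was called in 2 of the 6 fits, and a 3' count cannot tell its spliced from its unspliced form. Its highest adjusted p was 0.098, without siControl 8 h replicate 2.

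**Figure D2:**
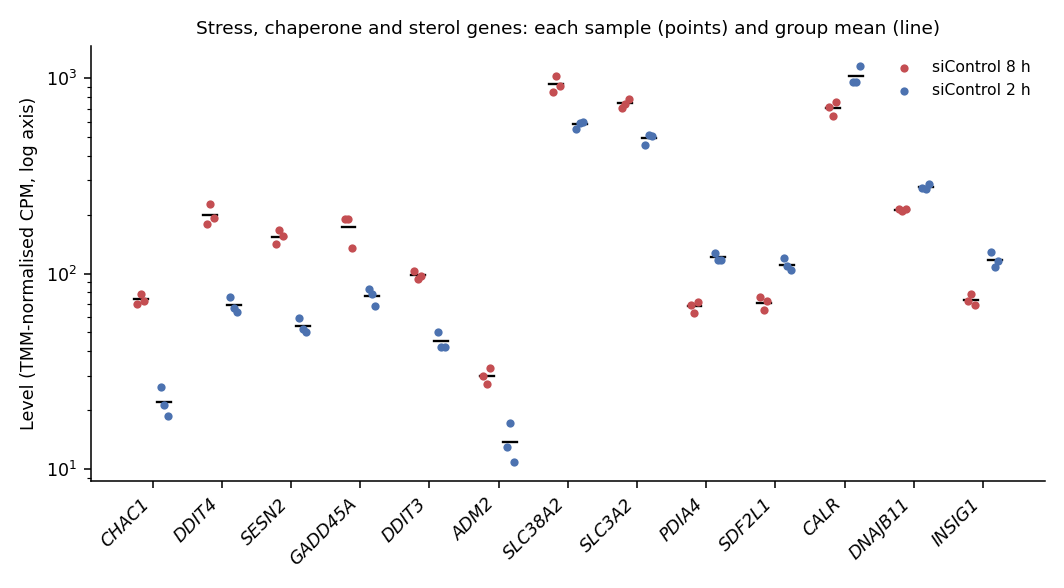
Level in TMM-normalised CPM (vertical log axis) of stress, chaperone and sterol genes (horizontal axis) in each siControl 8 h sample (red) and siControl 2 h sample (blue), with a black line at each group mean. The 3 red points lie above the 3 blue points from CHAC1 to SLC3A2 and below them from PDIA4 to INSIG1.

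Promoter sequence was looked up for the stress and chaperone genes because the 2 groups of genes moved in opposite directions. The sequences are from RefSeq on GRCh38.p14, read 5' to 3' on the strand of the gene, and each is a stretch of 150 bases upstream of the transcription start that RefSeq gives. The RefSeq start differs from the outermost GENCODE start, so the CHAC1 stretch lies inside the GENCODE span of the gene given above and the XBP1 stretch overlaps the end of its span. Capitals mark a match, on either strand, to the ATF4 response element TGATGNAAN in CHAC1 and to the endoplasmic reticulum stress element (CCAAT and CCACG with 9 free bases between them) in HSPA5, CALR and XBP1. The first base of the match lies at position -210 from the start in CHAC1, -66 in HSPA5, -225 in CALR and -52 in XBP1. The printed stretches are chr15:40953251-40953400 (plus strand) for CHAC1, chr9:125241344-125241493 (minus) for HSPA5, chr19:12938374-12938523 (plus) for CALR and chr22:28800570-28800719 (minus) for XBP1. The promoter windows searched for motifs were longer than these 150 bases and also took in a short stretch after the start.
CHAC1: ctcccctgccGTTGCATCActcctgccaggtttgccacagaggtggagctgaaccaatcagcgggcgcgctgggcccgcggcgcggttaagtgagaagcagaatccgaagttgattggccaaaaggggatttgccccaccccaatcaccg
HSPA5: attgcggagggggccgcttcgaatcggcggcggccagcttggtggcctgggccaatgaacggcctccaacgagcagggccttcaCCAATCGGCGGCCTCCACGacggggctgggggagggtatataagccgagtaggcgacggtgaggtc
CALR: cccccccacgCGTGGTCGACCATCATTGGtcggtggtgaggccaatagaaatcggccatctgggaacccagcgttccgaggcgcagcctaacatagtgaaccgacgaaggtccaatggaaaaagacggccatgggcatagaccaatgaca
XBP1: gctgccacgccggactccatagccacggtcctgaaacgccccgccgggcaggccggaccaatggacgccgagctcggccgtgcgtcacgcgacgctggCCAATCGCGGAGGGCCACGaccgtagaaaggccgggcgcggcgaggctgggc
The ATF4 response element was found in 7 of the 76 higher genes with a promoter window (9.21%), in 1 of the 50 lower genes (2%) and in 1.7% of all 10904 genes tested that had a window in the same RefSeq table. The 7 genes were CHAC1, PLEKHH3, SLC3A2, LINC01133, HRK, NCOA7 and FIGNL1. The endoplasmic reticulum stress element was found in XBP1 among the higher genes (1.32%), in CALR and HSPA5 among the lower genes (4%) and in 0.128% of all. Both of these motifs were added after the results were seen. A palindromic estrogen response element (GGTCA and TGACC with 3 free bases between them) was found in none of the 76 higher and none of the 50 lower genes, with 1 match among the 10904 windows. The AP-1 motif TGANTCA was found in 10.5% of higher genes, 10% of lower genes and 4.4% of all, and the E-box CACGTG in 7.89%, 10% and 10.1%. All were searched on both strands, and a match is a match of letters, not a bound site. Sequence outside the promoter windows was not searched.

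Among sterol genes the calls were falls. Of 25 measured genes for making or taking up cholesterol, 2 fell, INSIG1 among them, and 0 rose, which is 8% called beside 1.07% of all genes. The median log2 fold change was -0.19, 21 of the 25 were at or below 0, and in 52% all 8 h samples lay below all 2 h samples, against 9.2% of all genes. INSIG1, which holds the SREBP precursors in the endoplasmic reticulum, averaged 73.5 ± 4.88 CPM at 8 h and 117 ± 10.4 CPM at 2 h (log2 fold change -0.68 ± 0.17, adjusted p = 0.046). INSIG1 was called in 0 of the 6 leave-one-out fits, with an adjusted p of up to 0.173 without siControl 2 h replicate 1. Of the synthesis enzymes, CYP51A1 at -0.48, FDFT1 at -0.41, DHCR7 at -0.38 and SQLE at -0.28 had log2 fold changes below 0, and none of the 4 was called. DESeq2 called 6 members of the list lower and 0 higher, where it called 149 lower and 203 higher of all 14910 genes tested.

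Fatty acid synthesis gave no call by edgeR among 14 measured genes, with 6 lower and 1 higher at an unadjusted p under 0.05 and 3 lower by DESeq2. Its median log2 fold change was -0.24. Over all 14910 genes tested, 1822 had an unadjusted p under 0.05 in either direction, and DESeq2 called 203 higher and 149 lower.

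The gene with the largest fold rise that met the rule for named genes was MIR503HG, the host transcript of the miRNA miR-503. It had 46.3, 36.1 and 49.2 CPM in the siControl 8 h samples, against 7.98, 14.7 and 15.4 CPM in the siControl 2 h samples, and 17.2, 27.5 and 22.4 CPM in the untreated samples. The 8 h samples were thus above both other groups, and the log2 fold change over 2 h was 1.79 ± 0.26 (adjusted p = 0.000315). ELF3, an epithelial transcription factor of the ETS family, had 366, 381 and 386 CPM at 8 h, against 194, 172 and 214 CPM at 2 h (log2 fold change 0.97 ± 0.10, adjusted p = 5.85e-06). The 0 h samples of ELF3 averaged 196 ± 16.6 CPM, near the 2 h level.

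GADD45A, a growth arrest gene, had 191, 191 and 135 CPM at 8 h, against 83.3, 78.9 and 68.3 CPM at 2 h (log2 fold change 1.17 ± 0.16, adjusted p = 0.000179). TXNIP, which binds thioredoxin and limits glucose uptake, averaged 49.0 ± 10.1 CPM at 8 h and 22.5 ± 0.834 CPM at 2 h (log2 fold change 1.12 ± 0.16, adjusted p = 0.000321). CDKN1B, which encodes the cyclin-dependent kinase inhibitor p27, averaged 84.3 ± 7.27 CPM at 8 h and 53.3 ± 3.76 CPM at 2 h (log2 fold change 0.66 ± 0.13, adjusted p = 0.00877). It was the 1 called member of 28 G1 regulators (3.57% called beside 1.07% of all genes), whose median was 0.01. CDKN1B was called in 3 of the 6 leave-one-out fits, with an adjusted p of up to 0.0658 without siControl 2 h replicate 3.

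Other genes among the 15 largest rises were NUAK2, a kinase related to AMPK, with a log2 fold change of 1.04 ± 0.16, and C2CD2L, a lipid transfer protein, with 1.04 ± 0.14. DLX2, a homeobox factor, had 1.12 ± 0.23, and ST6GALNAC2, a sialyltransferase, 1.07 ± 0.25. NUAK2 and C2CD2L were called in all 6 leave-one-out fits, DLX2 in 5 (adjusted p up to 0.101 without siControl 2 h replicate 2) and ST6GALNAC2 in 1 (up to 0.155 without siControl 2 h replicate 1). The small nuclear RNA 7SK averaged 255 ± 71.7 CPM at 8 h and 133 ± 18.1 CPM at 2 h (log2 fold change 0.93 ± 0.20, adjusted p = 0.018), and was called in 2 of the 6 fits, with an adjusted p of up to 0.106 without siControl 8 h replicate 1. 7SK has no poly(A) tail and near-identical copies in the genome, so its counts are uncertain in this assay.

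The largest fall among well-measured genes was in ESM1 (chr5:54977864-55022671), which encodes the secreted proteoglycan endocan and is on the list of estrogen-repressed genes. It had 15.8, 10.7 and 12.6 CPM in the siControl 8 h samples, against 47.7, 44.98 and 40.9 CPM in the siControl 2 h samples. The groups were far apart, and the untreated samples, at 49.5, 35.3 and 44.1 CPM, were like the 2 h samples. The log2 fold change was -1.78 ± 0.16 (adjusted p = 2.95e-07).

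CCBE1, a secreted factor that activates VEGF-C, had 51.9, 39.0 and 50.3 CPM at 8 h, against 116, 97.4 and 94.9 CPM at 2 h (log2 fold change -1.13 ± 0.13, adjusted p = 2.22e-05). ITGB6, the integrin subunit of the epithelial receptor that activates TGF-beta, had 58.2, 58.4 and 49.998 CPM at 8 h, against 102, 104 and 111 CPM at 2 h (log2 fold change -0.93 ± 0.12, adjusted p = 7.96e-05). IL7R, the interleukin-7 receptor chain, had 23.4, 25.4 and 28.1 CPM at 8 h, against 50.6, 44.4 and 51.3 CPM at 2 h (log2 fold change -0.93 ± 0.13, adjusted p = 0.000268). In each of these the 3 samples at 8 h lay below all 3 at 2 h, as did those of the adhesion protein CEACAM6 (log2 fold change -1.12 ± 0.17), the monocarboxylate carrier family member SLC16A9 (-0.95 ± 0.13), the collagen COL8A1 (-0.90 ± 0.15) and the keratin-associated protein KRTAP2-3 (-1.02 ± 0.20). The falls of these 8 genes, ESM1 included, were called in all 6 leave-one-out fits.

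FAM180A averaged 109 ± 7.76 CPM at 8 h and 179 ± 7.33 CPM at 2 h (log2 fold change -0.71 ± 0.10, adjusted p = 0.000163), and its call also held in all 6. Less stable calls were ICAM2, a cell adhesion molecule, at -0.999 ± 0.24 and called in 2 of the 6 fits (adjusted p up to 0.195 without siControl 2 h replicate 3), HYAL2, a hyaluronidase, at -0.96 ± 0.19 and 3 of 6 (0.101 without siControl 2 h replicate 2), and STEAP1, a metalloreductase, at -0.85 ± 0.19 and 2 of 6 (0.136 without siControl 2 h replicate 3). A second row of transcripts of SRP19, a subunit of the signal recognition particle, averaged 18.4 ± 3.59 CPM at 8 h and 37.4 ± 2.44 CPM at 2 h (log2 fold change -1.02 ± 0.19, adjusted p = 0.0052). The authors' table splits the transcripts of this gene over 3 rows, so the fall is of the transcripts in this row and not of the gene as a whole.

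The estrogen target lists held 6 calls between 2 h and 8 h. Of 41 measured estrogen-induced genes, STC2 and XBP1 rose and 0 fell, which is 4.88% called beside 1.07% of all genes, with a median log2 fold change of 0.12. Against untreated cells, 12 of the 41 were called higher at 8 h, where 1.84% of all genes were, and 3 at 2 h, where 0.248% were. Of 18 estrogen-repressed genes, EFNA1, ERBB3 and TXNIP rose and ESM1 fell (22.2% called beside 1.07% of all genes, median 0.24). EFNA1, an ephrin ligand, averaged 84.2 ± 4.50 CPM at 8 h and 49.8 ± 3.01 CPM at 2 h (log2 fold change 0.76 ± 0.11, adjusted p = 0.000394). The receptor gene ESR1 had 62.7, 59.8 and 65.4 CPM at 8 h, against 62.2, 62.1 and 84.6 CPM at 2 h, and the groups overlapped (log2 fold change -0.15 ± 0.12, adjusted p = 0.685). CCND1, which encodes cyclin D1, averaged 622 ± 4.47 CPM at 8 h and 579 ± 79.0 CPM at 2 h (log2 fold change 0.10 ± 0.10, adjusted p = 0.761). AREG, an EGF receptor ligand, averaged 93.1 ± 9.89 and 71.2 ± 8.13 CPM (log2 fold change 0.39 ± 0.16, adjusted p = 0.318), and GREB1, a classical target in breast cancer cells, was low at 3.02 ± 1.498 and 2.01 ± 0.525 CPM (log2 fold change 0.58 ± 0.46, adjusted p = 0.672). None of the 20 estrogen receptors and cofactors was called by edgeR or DESeq2, with 2 higher and 1 lower at an unadjusted p under 0.05. Over all 14910 genes tested, 1822 had an unadjusted p under 0.05 in either direction.

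Growth factor receptors and ligands gave 3 rises among 20 measured members of the EGF and IGF families and 0 falls (15% called beside 1.07% of all genes), although the list's median was -0.04. INSR, the insulin receptor, had 149, 169.6 and 166 CPM at 8 h, against 80.0, 111 and 109.9 CPM at 2 h (log2 fold change 0.69 ± 0.11, adjusted p = 0.000976). HBEGF, a ligand of the EGF receptor, had 180.0, 159 and 165 CPM at 8 h, against 109, 115 and 112 CPM at 2 h (log2 fold change 0.58 ± 0.10, adjusted p = 0.00126). Both were called in all 6 leave-one-out fits and lay above the 0 h level, which averaged 102 ± 5.08 CPM for INSR and 122 ± 4.30 CPM for HBEGF. ERBB3, a receptor of the EGF receptor family, averaged 204 ± 18.8 and 152 ± 15.6 CPM (log2 fold change 0.42 ± 0.10, adjusted p = 0.0484), and was called in 2 of 6 (adjusted p up to 0.194 without siControl 8 h replicate 3). Of 23 genes of MAPK feedback, the phosphatase DUSP8 rose by 0.75 ± 0.15 and the phosphatase DUSP6 fell by 0.62 ± 0.15 on the log2 scale (8.7% called beside 1.07% of all genes). DUSP8 was called in 4 and DUSP6 in 1 of the 6 fits, with adjusted p up to 0.0595 (without siControl 2 h replicate 3) and 0.203 (without siControl 8 h replicate 1).

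Of 31 immediate-early genes, FOSL2 and PPP1R15A rose and CCN1 and CCN2 fell (12.9% called beside 1.07% of all genes). FOSL2, an AP-1 subunit, averaged 88.6 ± 8.02 CPM at 8 h and 63.4 ± 3.21 CPM at 2 h (log2 fold change 0.48 ± 0.11, adjusted p = 0.0288), and was called in 1 of the 6 fits (adjusted p up to 0.16 without siControl 8 h replicate 2). Kruppel-like factors gave 0 calls among 14 by edgeR and 1 higher by DESeq2, with 5 higher and 1 lower at an unadjusted p under 0.05. Their median log2 fold change was 0.33, and in 50% of them the 8 h samples all lay above the 2 h samples, against 9.09% of all genes. Over all 14910 genes tested, 1822 had an unadjusted p under 0.05 in either direction, and DESeq2 called 203 higher and 149 lower.

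Single members were called in several further lists, where 1.07% of all genes tested were called. The called shares were 4.35% of the TGF-beta and BMP list, 2.94% of the interferon list and 8.7% of the heat shock list. They were 4.55% of the NRF2 list and 4.76% of the epithelial and ovarian carcinoma markers. INHBB, the beta B subunit of inhibins and activins, had 226, 236 and 274 CPM at 8 h, against 108, 139.99 and 157 CPM at 2 h (log2 fold change 0.86 ± 0.13, adjusted p = 0.000359), and was 1 of 23 genes of the TGF-beta and BMP list. IRF1, an interferon regulatory factor, averaged 102 ± 10.2 CPM at 8 h and 61.3 ± 5.99 CPM at 2 h (log2 fold change 0.74 ± 0.14, adjusted p = 0.00602) and was 1 of 34 genes of the interferon response, whose median was -0.15. Of 33 p53-activated targets, BBC3, GADD45A and SESN2 rose and 0 fell (9.09% called beside 1.07% of all genes, median 0.02), and SESN2 is also on the ATF4 list. BBC3, which encodes the pro-apoptotic protein PUMA, averaged 80.7 ± 7.02 CPM at 8 h and 57.9 ± 2.04 CPM at 2 h (log2 fold change 0.48 ± 0.11, adjusted p = 0.0328), and was called in 1 of the 6 fits (adjusted p up to 0.177 without siControl 8 h replicate 2). Of 23 heat shock proteins, HSPA1A, an inducible HSP70, fell by 0.73 ± 0.13 on the log2 scale (adjusted p = 0.00343) and DNAJB1, an HSP40 co-chaperone, rose by 0.44 ± 0.10 (adjusted p = 0.0232). HSPA1A has a near-identical neighbouring copy, so its reads may be split, and DNAJB1 was called in 2 of the 6 fits (adjusted p up to 0.145 without siControl 2 h replicate 2). TXNIP was also the 1 called gene of 22 on the NRF2 list, and ELF3 the 1 called gene of 21 epithelial and ovarian carcinoma markers.

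Proliferation genes gave no calls by edgeR or DESeq2. Over all 14910 genes tested, 1822 had an unadjusted p under 0.05 in either direction, and DESeq2 called 203 higher and 149 lower. Among 46 DNA replication genes 2 were higher and 2 lower at an unadjusted p under 0.05, among 36 mitosis genes 0 and 4, and among 25 homologous recombination genes 2 and 1. The medians of these lists were -0.02, -0.05 and 0.04. Ribosome biogenesis gave 0 calls by edgeR and 1 lower by DESeq2 among 39 genes, with 1 higher and 5 lower at an unadjusted p under 0.05 and a median of -0.14. Of these 39, 36 were at or below 0, and in 17.9% all 8 h samples lay below all 2 h samples, against 9.2% of all genes. Cytosolic ribosomal proteins had 0 calls by either tool among 47, with 2 higher at an unadjusted p under 0.05, and a median of 0.11. Above 0 were 42 of the 47. In none of those 47 were the groups apart. No call was made by edgeR among 35 nuclear-encoded respiratory chain genes (1 higher and 0 lower at an unadjusted p under 0.05), 28 hypoxia and glycolysis genes (2 and 5), 21 NF-kB genes (2 and 4), 18 circadian clock genes (1 and 1) or 16 mesenchymal and matrix genes (1 and 1). DESeq2 called 1 hypoxia and glycolysis gene lower and 1 circadian clock gene higher, and 0 in the other 3 of these lists.

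**Figure D3:**
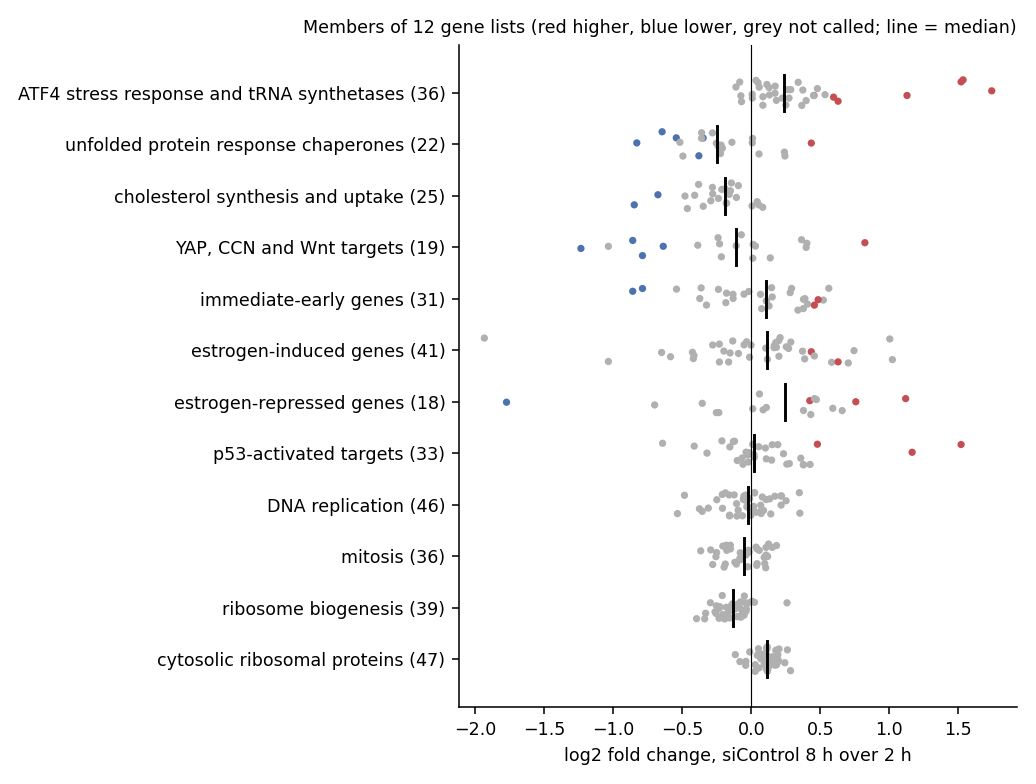
Log2 fold change of siControl 8 h over siControl 2 h (horizontal axis) for the measured members of 12 gene lists (rows, with the number measured). Each point is a gene, red where called higher, blue where called lower and grey where not called, and the black line is the list's median, which is 0.24 for the ATF4 list and -0.25 for the chaperone list.

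Each of the 160 genes was placed by its call at 2 h against the untreated cells, a comparison that shares the 2 h libraries. At 2 h, 37 genes were higher than at 0 h (0.248% of those tested) and 0 were lower, with 1709 genes at an unadjusted p under 0.05; DESeq2 called 101 higher and 29 lower. At 8 h, 274 genes were higher than at 0 h (1.84% of those tested) and 126 lower (0.845%), 2.68% in either direction. Of the 96 genes higher at 8 h than at 2 h, 0 were called at 2 h against 0 h, where 0.248% of all genes tested were, so this count does not set the 96 apart from other genes, and 62 were also called higher at 8 h than at 0 h. Of the 64 lower genes, 59 were not called at 2 h against 0 h, 34 of them called lower at 8 h than at 0 h, and 5 were transient rises. The 96 and the 64 were selected on the same 8 h libraries, which favours calls in the same direction at 8 h against 0 h. Without siControl 0 h replicate 2, 56 of the 96 and 29 of the 59 were called against 0 h. A gene not called at 2 h may still have differed from 0 h: NUAK2 averaged 14.2 ± 0.817 CPM at 0 h, 9.15 ± 1.08 CPM at 2 h and 18.9 ± 1.44 CPM at 8 h (log2 fold change -0.63 ± 0.16 at 2 h over 0 h, adjusted p = 0.111), and STC2 488 ± 24.0, 629 ± 35.6 and 972 ± 70.1 CPM at the same times (0.37 ± 0.09, adjusted p = 0.0713). The totals against 0 h differed with the library left out. At 2 h, 101, 18 and 39 genes were higher without siControl 0 h replicate 1, 2 or 3, and 34, 17 and 16 without siControl 2 h replicate 1, 2 or 3. The lower genes at 2 h numbered 37, 0 and 2 in the first 3 of these fits. At 8 h, 456, 137 and 217 were higher and 298, 51 and 94 lower without siControl 0 h replicate 1, 2 or 3, and 199, 140 and 167 were higher and 81, 33 and 93 lower without siControl 8 h replicate 1, 2 or 3.

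The 5 transient genes were SOX7, CCN1, RETREG1, SOX9 and NMU. SOX7, a transcription factor of the SOX family, had 6.84, 13.7 and 10.3 CPM at 0 h, 26.1, 26.2 and 28.1 CPM at 2 h and 11.1, 8.60 and 14.3 CPM at 8 h. The 2 h samples stood above all others, while the 0 h and 8 h samples overlapped. Its log2 fold change was 1.40 ± 0.21 at 2 h over 0 h (adjusted p = 0.000842) and -1.24 ± 0.20 at 8 h over 2 h (adjusted p = 0.00134). CCN1, a matricellular protein induced by YAP and by serum, had 145, 68.9 and 130.4 CPM at 0 h, 207, 217 and 259.7 CPM at 2 h and 112, 135 and 129 CPM at 8 h. Replicate 2 at 0 h, the library that stood apart, was the lowest of the 9 values, and without it CCN1 was still called at 2 h over 0 h (log2 fold change 0.71, adjusted p = 0.00257). The log2 fold change at 8 h over 2 h was -0.86 ± 0.17 (adjusted p = 0.00699), called in 4 of the 6 leave-one-out fits (adjusted p up to 0.063 without siControl 8 h replicate 1).

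RETREG1, a receptor for autophagy of the endoplasmic reticulum, had 25.9, 28.6 and 33.4 CPM at 0 h, 69.7, 76.6 and 84.0 CPM at 2 h and 41.5, 43.5 and 53.5 CPM at 8 h. It fell back only in part: it was lower at 8 h than at 2 h (log2 fold change -0.73 ± 0.12, adjusted p = 0.00146) and still higher at 8 h than at 0 h (log2 fold change 0.66 ± 0.13, adjusted p = 0.00436). SOX9, another SOX factor, averaged 27.8 ± 3.21 CPM at 0 h, 46.3 ± 0.659 CPM at 2 h and 29.8 ± 5.54 CPM at 8 h, and NMU, the neuropeptide neuromedin U, 44.3 ± 4.92, 64.9 ± 5.55 and 47.5 ± 3.88 CPM. SOX9 and NMU rest on thinner evidence: each was called at 8 h against 2 h in 1 of the 6 leave-one-out fits, with adjusted p up to 0.204 (without siControl 8 h replicate 2) and 0.22 (without siControl 8 h replicate 2), and neither was called at 2 h over 0 h without siControl 0 h replicate 2 (adjusted p = 0.322 and 0.215). CCN1, SOX7, SOX9 and CCN2 were the 4 called lower among 19 YAP, CCN and Wnt targets, with AJUBA, a LIM protein that inhibits the LATS kinases, the 1 called higher (26.3% called beside 1.07% of all genes, median -0.11). CCN2 averaged 12.9 ± 2.44 CPM at 8 h and 22.4 ± 4.10 CPM at 2 h (log2 fold change -0.79 ± 0.18, adjusted p = 0.0288). It was called in 2 of the 6 fits (adjusted p up to 0.174 without siControl 8 h replicate 1) and was not called at 2 h over 0 h (adjusted p = 0.215). AJUBA averaged 70.3 ± 6.49 CPM at 8 h and 39.7 ± 5.81 CPM at 2 h (log2 fold change 0.82 ± 0.14, adjusted p = 0.00137).

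**Figure D4:**
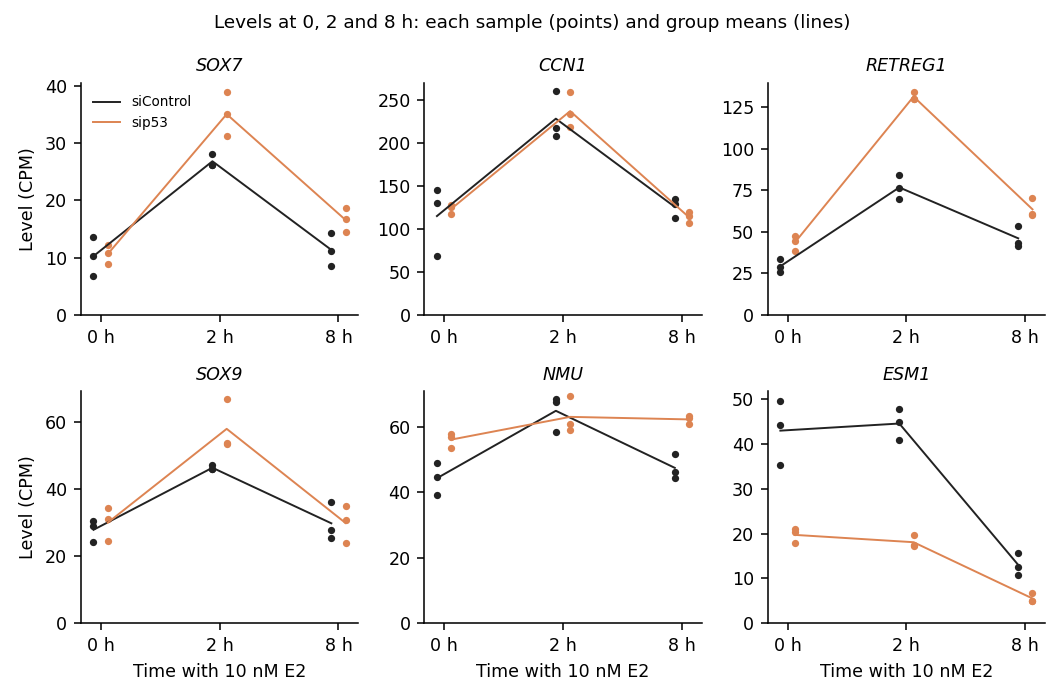
Level in CPM (vertical axis, from 0) at 0, 2 and 8 h with 10 nM E2 (horizontal axis) of the 5 transient genes and of ESM1, with each sample as a point and lines joining group means for siControl (black) and sip53 (orange). In siControl the 5 transient genes peak at 2 h, while ESM1 is at 42.9 CPM at 0 h, 44.5 CPM at 2 h and 13.02 CPM at 8 h.

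The early genes were mostly not called between 2 h and 8 h. Of the 37 genes raised at 2 h, 5 were lower at 8 h than at 2 h, where 0.429% of all genes were, 0 were higher, where 0.644% were, and 32 were not called. At 8 h against 0 h, 26 of the 37 were called higher, where 1.84% of all genes were. The 37 were selected for high values in the same 2 h libraries, which favours lower values at 8 h. They were also selected for low values in the 0 h libraries, which favours higher calls at 8 h against 0 h. CISH, a feedback inhibitor of cytokine signalling with the largest rise at 2 h, averaged 2.13 ± 0.522 CPM at 0 h, 19.5 ± 3.33 CPM at 2 h and 12.9 ± 2.23 CPM at 8 h, and its fold change from 2 h to 8 h was not called (log2 -0.59 ± 0.18, adjusted p = 0.128). CISH was picked out after its values were seen. Without siControl 0 h replicate 2, 17 of the 37 were called at 2 h.

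The same pair of times was available in sip53 cells, in libraries that the siControl comparison does not use. There, 206 genes differed between 8 h and 2 h, 117 higher (0.785% of those tested) and 89 lower (0.597%), or 1.38% in either direction. Leaving out sip53 2 h replicate 1, 2 or 3 gave 64, 56 and 75 higher genes with 50, 48 and 48 lower ones, and leaving out sip53 8 h replicate 1, 2 or 3 gave 79, 90 and 90 higher with 66, 58 and 50 lower. Of the 96 genes higher at 8 h in siControl, 40 were also called higher in sip53, which is 41.7% of the siControl list and 34.2% of the sip53 list. Of the 64 lower genes, 33 were also called lower, which is 51.6% and 37.1%. In 95 of the 96 and 62 of the 64 the fold change had the same sign in sip53, and 0 were called in the opposite direction. The sip53 samples at 8 h lay entirely above those at 2 h for 85.4% of the 96, against 9.6% of all genes, and entirely below for 82.8% of the 64, against 10.7% of all genes. The median log2 fold change of the 96 was 0.68 in siControl, where they were selected, and 0.50 in sip53, and that of the 64 was -0.69 and -0.54.

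CHAC1 had 51.3, 50.9 and 41.8 CPM in the sip53 8 h samples, against 21.6, 21.1 and 17.6 CPM in the sip53 2 h samples (log2 fold change 1.26 ± 0.14, adjusted p = 2.08e-05), so it rose in both arms. ESM1 had 4.91, 5.05 and 6.65 CPM at 8 h in sip53, against 17.4, 19.7 and 17.2 CPM at 2 h (log2 fold change -1.70 ± 0.18, adjusted p = 5.9e-06), so it fell in both arms, and its level in sip53 was lower at both times than the siControl values given above. RETREG1 had a log2 fold change of -1.05 ± 0.12 in sip53 (adjusted p = 2.07e-05) and CCN1 of -1.06 ± 0.17 (adjusted p = 0.000666). SOX7 (-1.08 ± 0.19, adjusted p = 0.00249) and SOX9 (-0.96 ± 0.15, adjusted p = 0.000819) fell there too, while NMU did not (-0.018 ± 0.11, adjusted p = 0.969). Of the genes that rose in siControl, ADM2 had 0.11 ± 0.22 in sip53, BBC3 0.11 ± 0.11 and PPP1R15A 0.16 ± 0.11. None of these rises was called (adjusted p = 0.893, 0.75 and 0.592). HSPA5 had -0.37 ± 0.08 (adjusted p = 0.0142), and CALR had -0.36 ± 0.10 without passing the threshold (adjusted p = 0.0613). The ATF4 list had 8 members called higher in sip53, with a median of 0.08, against 7 and 0.24 in siControl. Over all genes tested, 0.785% were called higher in sip53 and 0.644% in siControl.

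A test of the difference between the arms in the 8 h minus 2 h change called 0 genes by edgeR and 0 by DESeq2, with 491 and 489 genes at an unadjusted p under 0.05. With no filter on low counts, edgeR called 10 genes higher and 23 lower in this test. The smallest p-values were those of NPIPB7, HDAC9 and RALGPS1, at an adjusted p of 1.00. HDAC9, a histone deacetylase, had a log2 fold change of -1.33 ± 0.29 in siControl and 0.16 ± 0.28 in sip53, and RALGPS1, an exchange factor for Ral GTPases, 1.02 ± 0.23 and -0.16 ± 0.22. NPIPB7 belongs to a family of near-identical copies and had 0 counts in the 3 siControl samples at 8 h and averaged 1.04 ± 0.904 CPM at 2 h, too few counts to give a fold change.

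**Figure D5:**
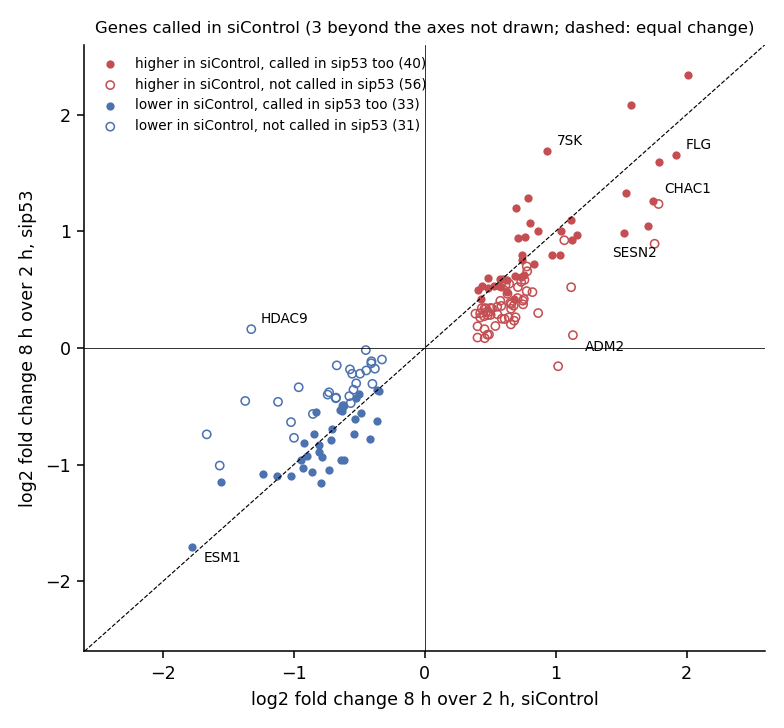
Log2 fold change of 8 h over 2 h in siControl (horizontal axis) and in sip53 (vertical axis) for the genes called in siControl, with 3 beyond the axes not drawn. Filled points were called in the same direction in sip53 (40 higher in red, 33 lower in blue), open points were not (56 and 31), and the dashed line marks equal change; HDAC9 is the 1 lower gene drawn above the zero line, and the other lower gene without a negative value in sip53, ENSG00000256646, is not drawn.

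Some called features cannot be read as changes of a single gene. The 3 called features with the largest fold changes, ENSG00000256646, ERBIN-DT and SRP72P2, had low levels. ENSG00000256646 and ERBIN-DT had 0 counts in all 3 samples at 8 h and averaged 4.12 ± 0.408 and 0.884 ± 0.254 CPM at 2 h, and SRP72P2 averaged 2.78 ± 0.542 CPM at 8 h and 0.231 ± 0.304 CPM at 2 h. A readthrough transcript (FAM47E-STBD1), a fusion of pseudogenes (ARHGAP27P1-BPTFP1-KPNA2P3) and small RNAs without a poly(A) tail (7SK, RNU2-2P and SNORD118) were also among the 160. RNU2-2P averaged 53.5 ± 6.58 CPM at 8 h and 33.0 ± 2.17 CPM at 2 h (log2 fold change 0.70 ± 0.13, adjusted p = 0.00697), and rose in sip53 as well (log2 fold change 1.199 ± 0.13, adjusted p = 2.07e-05), as did 7SK (1.69 ± 0.20, adjusted p = 3.15e-05).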

How the data were processed

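RNA of 18 PEO1 samples was measured by 3' mRNA-seq. The authors deposited 1 table of RSEM expected counts per gene. Per the submitters' processing notes, the tools were cutadapt, Bowtie2, RSEM 1.3.3 and MultiQC and the build hg19, in an order not stated; no source used here names the annotation. The expected counts were whole numbers, so rounding changed none. The table's 57736 rows, each a set of Ensembl transcripts, were named through GENCODE v29 and current symbols. A name was found for 52943 rows; the unnamed rows held 0.631% of counts and were left out. Printed gene coordinates are on GRCh38 and were not used for counting.

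Tests used edgeR 4.0.16 in R 4.3.3: filterByExpr (minimum count 10), TMM scaling and a quasi-likelihood fit of 6 group coefficients to the 18 samples. The standard error is the log2 fold change divided by the root of the F statistic. The biological coefficient of variation was 14.7%, and for most named genes this spread, more than counting error, limits the precision. A gene was called at a Benjamini-Hochberg adjusted p under 0.05 over the 14910 genes tested. No pair of replicates was alike within counting noise (chi-square per degree of freedom 4.005 to 22.98). The script was tested on simulated data.

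The comparison, the 32 gene lists and the named genes were chosen with earlier results of these data known. Named by rule were the 15 called genes per direction with the largest fold change among those without overlap between groups and with a mean log2 CPM from 3 upwards; up to 4 called members per list and direction; 5 per time class; the 3 smallest p-values of the test between arms; and ESR1, GREB1, CCND1 and AREG. Alternatives were other scalings, filters, DESeq2 1.42.0, a replicate block, a fit to the compared groups alone and leaving out each replicate. Results of some single genes, and the check of the targeted gene in sip53 cells, are not reported here.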

Additional observations from a re-analysis of the deposited data

How the results depend on the processing

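No named call changed direction under any alternative run. The log2 fold change of ESR1, which was not called, was -0.22 to 0.0097 with 1 library left out, and the value above 0 came without siControl 2 h replicate 3. Of 354 results for the 59 called genes that the rule named, in fits that left out 1 of the 6 libraries, 258 stayed past the threshold and 96 did not; under the other alternatives 508 of 531 stayed. Of the 160 genes, 77 to 94 were called again with 1 library left out, 135 to 160 under the other alternatives and 108 with a replicate block in a fit to the 2 groups alone, which was added after the data were seen.

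For 8 h against 2 h in siControl, 96 genes higher and 64 lower became 176 and 132 with no filter on low counts, 203 and 149 with the DESeq2 Wald test, and 47 to 64 and 29 to 52 with 1 library left out. They were 106 and 62 with DESeq2 size factors, 93 and 71 with upper-quartile scaling, 112 and 67 at a minimum count of 30, 107 and 71 in a fit to the 2 groups alone and 133 and 91 without siControl 0 h replicate 2. Same-numbered samples at 8 h and 2 h did not deviate together (correlations -0.0127, -0.0201 and 0.0699). Such values cannot tell whether same-numbered samples were handled together, and the labels give only a replicate number. With a replicate block the counts were 94 and 60, and 80 and 54 with the block in the fit to the 2 groups alone.

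For 2 h against 0 h, 37 higher and 0 lower became 33 and 1 with either DESeq2 size factors, upper-quartile scaling or a minimum count of 30. They became 157 and 115 with no filter, 101 and 29 by DESeq2, 11 and 1 in a fit to the groups alone, and 16 to 101 and 0 to 37 with 1 library left out. For 8 h against 0 h, 274 and 126 became 427 and 367 with no filter, 397 and 286 by DESeq2, 90 and 39 in a fit to the groups alone, and 137 to 456 and 33 to 298 with 1 library left out. For sip53, 117 and 89 became 234 and 152 with no filter, 222 and 179 by DESeq2, and 218 and 150 in a fit to the groups alone. They were 56 to 90 and 48 to 66 with 1 sip53 library left out. Without siControl 0 h replicate 2, which is in neither group compared, they were 157 and 122. The difference between arms gave 10 and 23 with no filter and 0 in each other fit. With no filter, 25184 genes were tested in place of 14910; for the other changes the cause was not tested.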

Other observations

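The genes given here are further members of the 160 and were picked out after their values were seen. DEPTOR, an inhibitor of mTOR, had 7.64, 4.58 and 2.39 CPM in the siControl 8 h samples, against 0.570, 2.30 and 0.709 CPM in the siControl 2 h samples (log2 fold change 2.01 ± 0.50, adjusted p = 0.0497, edgeR), and rose in sip53 as well (2.34 ± 0.45, adjusted p = 0.00475). ULK1, the kinase that starts autophagy, averaged 110.3 ± 9.20 CPM at 8 h and 70.7 ± 17.8 CPM at 2 h (0.64 ± 0.14, adjusted p = 0.0253). SQSTM1, an autophagy receptor, averaged 333 ± 22.3 CPM at 8 h and 467 ± 57.4 CPM at 2 h (-0.49 ± 0.09, adjusted p = 0.00602), and fell in sip53 too (-0.56 ± 0.09, adjusted p = 0.00091). Leaving out 1 library kept the calls of these 3 in 2, 2 and 3 fits out of 6, with adjusted p up to 0.268, 0.113 and 0.0592.

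IRX3, a homeobox factor, had 105, 109 and 111 CPM at 8 h, against 65.1, 71.3 and 82.0 CPM at 2 h (log2 fold change 0.58 ± 0.10, adjusted p = 0.00391), and DLX1, another homeobox factor, averaged 16.5 ± 1.07 CPM at 8 h and 9.53 ± 0.865 CPM at 2 h (0.79 ± 0.18, adjusted p = 0.0239). CADM1, a cell adhesion molecule, had 333, 280.1 and 352 CPM at 8 h, against 167, 189.9 and 195 CPM at 2 h (0.81 ± 0.10, adjusted p = 3.48e-05), and FLG, the epidermal protein filaggrin, 14.5, 12.5 and 14.2 CPM at 8 h, against 3.87, 3.22 and 3.78 CPM at 2 h (1.92 ± 0.28, adjusted p = 0.000321). Among genes that fell, EPHB2, a receptor of ephrins, averaged 89.5 ± 7.003 CPM at 8 h and 138 ± 12.7 CPM at 2 h (-0.63 ± 0.10, adjusted p = 0.00146), while the ephrin gene EFNA1 rose. OGDH, an enzyme of the tricarboxylic acid cycle, averaged 28.2 ± 1.77 CPM at 8 h and 43.5 ± 1.36 CPM at 2 h (-0.62 ± 0.11, adjusted p = 0.00365), and the long non-coding RNA LUCAT1 3.29 ± 0.453 CPM at 8 h and 10.4 ± 2.56 CPM at 2 h (-1.67 ± 0.25, adjusted p = 0.000467). IRX3, CADM1, FLG, EPHB2, OGDH and LUCAT1 were called in all 6 leave-one-out fits, and DLX1 in 1 (adjusted p up to 0.101 without siControl 8 h replicate 1).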
